A study of Mus musculus with 12 samples.

Results

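The mitosis genes are a named group of 44 genes whose products drive cells into mitosis, build the spindle, hold and separate the chromosomes and divide the cell. They were picked by name from a table of 13508 named genes, and a member had to average at least 1 FPKM (reads per transcript, divided by its length and by the library's mapped total) over all 12 libraries. Of the 44 genes, 43 had a named row, all 43 reached that level, and all 43 passed the filter of the test, which kept 12823 genes. The member without a named row was Kif4, a chromosome-bound kinesin on the X chromosome. Where a name had several rows, that with the highest mean FPKM was used. Apart from that level and this choice of row, no measured value entered the rule.

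The libraries came from mouse embryonic stem cells of strain 129SvEv. There were 4 lines, of which 18 and 26 are wild type (WT) and 25 and 39 lack Arkadia (null), and the series asks how Arkadia and SnoN set the dose response of TGFβ signalling. Arkadia, encoded by Rnf111, is a ubiquitin ligase that removes inhibitors of SMAD2 and SMAD3. Every line was grown with GSK3 and MEK inhibitors and LIF and spent 24 h on fibronectin in N2B27 medium. It was next exposed for 4 h to 10 µM SB431542, a blocker of the type I receptors through which Activin, Nodal and TGFβ signal. A first dish of each line was harvested at that point (SB), and the remaining dishes were washed and given 10 ng/ml Activin A, a TGFβ family ligand, in fresh N2B27 for 3 or 6 h. All 6 groups, of 2 lines each, therefore share the inhibitor treatment. There was no group with an equal time in Activin-free medium, so inhibitor removal, the medium change and the later harvest cannot be told apart from Activin. The labels do not say whether the lines of a genotype are independent derivations, so p-values measure the spread between these lines only.

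In a dividing cell, the kinase CDK1 with a B-type cyclin starts mitosis, and the kinases PLK1, AURKA and AURKB carry it forward. A spindle checkpoint delays separation until the kinetochores of all chromosomes are attached, after which the anaphase-promoting complex has cyclin B and securin destroyed and the central spindle directs cytokinesis. Transcripts of many of these genes peak late in the cell cycle, under B-MYB, FOXM1 and the MuvB complex acting at a promoter element called the CHR, often beside CCAAT boxes bound by NF-Y. Embryonic stem cells divide rapidly and express these genes at high levels. In bulk RNA, fewer cells in mitosis and less RNA in each such cell cannot be told apart.

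Summed FPKM ran from 578104 to 805752 per library, and read totals are unknown. Embryonic stem cell markers had their defining members in all libraries, with Pou5f1 at 562.2 to 925.6 FPKM. Nanog was at 3.45 to 5.44 FPKM in SB and 44.7 to 85.1 after Activin, and Esrrb at 1.55 to 3.47 throughout. On the mean of both genotypes at 3 h, 3 of the 8 markers were higher and 4 lower (limma, adjusted p under 0.05). Over all genes, 18.8% were higher and 18.7% lower. The fibroblast markers summed to 8.51 to 16.1 FPKM (5 of 8 in the table, Col1a1 at 0.63 to 2.14), the endoderm markers to 5.86 to 9.70 (5 of 6, Sox17 at 0 to 1.34). The endoderm sum was 6.38 to 7.71 in WT and 5.86 to 6.95 in null in SB, and at 3 h it was higher without overlap, at 8.73 to 9.09 and 8.33 to 8.91. At 6 h it was 7.66 to 9.08 and 7.98 to 9.70. Gata4 (log2 change 0.94, limma) and Cxcr4 (0.51) rose at 3 h on the mean of both genotypes, and Gata4 averaged 0.48 to 2.54 FPKM over the groups. The other listed genes did not share this rise. Foxa2 (0.07 to 0.67 FPKM over all libraries) was lower at 3 h in every line. Dab2 and Sox17 were lower in lines 18, 26 and 39 and higher in line 25. The trophoblast markers (6 of 7 in the table) summed to 76.2 to 90.1 FPKM in the WT and 104.3 to 152.1 in the null libraries, mostly from Krt8 and Krt18. In the WT lines the fibroblast sum was 10.7 to 13.3 in SB, 8.75 to 9.10 at 3 h and 8.51 to 8.93 at 6 h. The part of these cell types in the results was not tested. Transcripts of 73 ribosomal protein genes took 15.8 to 18.0% of the FPKM of named genes in SB, 18.1 to 19.5% at 3 h and 18.1 to 19.7% at 6 h. The mitosis genes took 0.408 to 0.482% in SB, 0.331 to 0.373% at 3 h and 0.357 to 0.40% at 6 h, so their Activin and SB libraries did not overlap on this share. The share also depends on the total of named genes, which was higher in each line's Activin libraries. The members' own FPKM summed to 2636 to 2815 in SB, 2467 to 2609 at 3 h and 2566 to 2750 at 6 h. That sum overlapped SB at 6 h and not at 3 h.

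Promoter sequences are shown because many mitosis genes moved together. They are from RefSeq on GRCm38.p6, whose primary coordinates are those of mm10. Each runs from 120 bases before to 50 bases after the annotated start, 5′ to 3′ on the gene's strand, with matches to the CHR word TTTGAA (or its reverse, TTCAAA) and the CCAAT word (or ATTGG) in capitals. The first set holds the 4 members with the largest falls at 3 h among those with a window, Ccnf (chr17:24251360-24251529, minus strand), Plk1 (chr7:122159315-122159484, plus strand), Kif20b (chr19:34922238-34922407, plus strand) and Kif11 (chr19:37376262-37376431, plus strand).
Ccnf: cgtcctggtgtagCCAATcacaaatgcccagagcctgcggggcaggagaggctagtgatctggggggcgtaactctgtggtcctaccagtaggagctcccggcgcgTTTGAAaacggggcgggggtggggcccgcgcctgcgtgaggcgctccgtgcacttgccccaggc
Plk1: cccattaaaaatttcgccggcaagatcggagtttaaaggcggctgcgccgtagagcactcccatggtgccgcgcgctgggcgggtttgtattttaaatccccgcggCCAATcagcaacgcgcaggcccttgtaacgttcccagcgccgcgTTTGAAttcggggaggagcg
Kif20b: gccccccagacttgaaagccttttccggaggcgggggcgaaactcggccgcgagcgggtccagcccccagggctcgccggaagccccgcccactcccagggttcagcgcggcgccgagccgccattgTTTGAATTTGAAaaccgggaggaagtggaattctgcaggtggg
Kif11: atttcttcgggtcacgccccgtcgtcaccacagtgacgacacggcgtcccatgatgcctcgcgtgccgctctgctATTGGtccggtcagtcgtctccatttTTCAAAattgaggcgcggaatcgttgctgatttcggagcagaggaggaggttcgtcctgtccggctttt
The second set holds Nuf2 (chr1:169531415-169531584, minus strand), the member that rose at 3 h, and the pair that starts mitosis, Ccnb1 (chr13:100786437-100786606, minus strand) and Cdk1 (chr10:69352863-69353032, minus strand), which did not pass the test.
Nuf2: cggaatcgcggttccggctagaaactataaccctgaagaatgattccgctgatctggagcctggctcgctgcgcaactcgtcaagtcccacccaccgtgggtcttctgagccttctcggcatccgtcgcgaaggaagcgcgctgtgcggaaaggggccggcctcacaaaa
Ccnb1: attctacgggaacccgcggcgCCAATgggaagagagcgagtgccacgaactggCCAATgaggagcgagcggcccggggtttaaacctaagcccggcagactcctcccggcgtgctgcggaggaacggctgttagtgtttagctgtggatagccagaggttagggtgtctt
Cdk1: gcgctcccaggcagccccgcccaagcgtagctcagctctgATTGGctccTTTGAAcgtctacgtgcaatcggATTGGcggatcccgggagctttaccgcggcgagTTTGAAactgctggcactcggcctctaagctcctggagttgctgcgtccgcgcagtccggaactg

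In windows of 250 bases before to 50 after the start, on either strand, the CHR word stood in 24 of the 31 members with a usable window (77.4%) and in 11.6% of 8199 table genes with one. A CCAAT word stood in 25 of 31 members (80.6%) against 39.4% of table genes. Both words together stood in 21 of 31 members (67.7%) against 4.98%. The E2F words TTCGCGC and TTGGCGC were rare in both, in 4 of 31 members and 7.40% of table genes. Among members that fell at 3 h, 17 of 18 windows held the CHR word, the exception being Nusap1, and 7 of the other 13 did. These counts describe the letters and carry no test, and a CHR and a CCAAT word can share at most 1 end base.

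At 3 h of Activin, 27 of the 43 mitosis genes were lower than in SB and 1 was higher, on the mean of the responses of both genotypes. Calls are at an adjusted p under 0.05 from limma on log2(FPKM + 1), Benjamini-Hochberg adjusted over the 12823 genes tested, and every adjusted p in the text comes from that fit. Over all genes, 18.7% were called lower and 18.8% higher in this comparison. The median log2 change was −0.24 over the members and −0.01 over all genes. The falls were modest, with Ccnf the largest at −0.49 ± 0.05 (SE). In each of the 4 lines most members were below that line's own SB library, 35 and 34 of 43 in the WT pair and 36 and 33 in the null pair (lines 25 and 39), against 49.6 to 52.3% of all genes.

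At 6 h, 19 members were lower than in SB and 2 were higher, where 16.1% of all genes were lower and 21.0% higher. The median log2 change was −0.12, against 0.01 over all genes, and 34 to 36 members per line were below the line's SB library. The 3 h and 6 h comparisons share the SB libraries. The 4 Activin libraries all lay below the 4 SB libraries for 25 members at 3 h, where 15.9% of all genes did so, and for 18 members at 6 h, against 12.8%. They all lay above for 1 member at each time, Cenpf at 3 h (12.9% of all genes) and Bub1 at 6 h (13.5%), neither of which passed the test; these were looked up after the counts were seen.

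**Figure D1:**
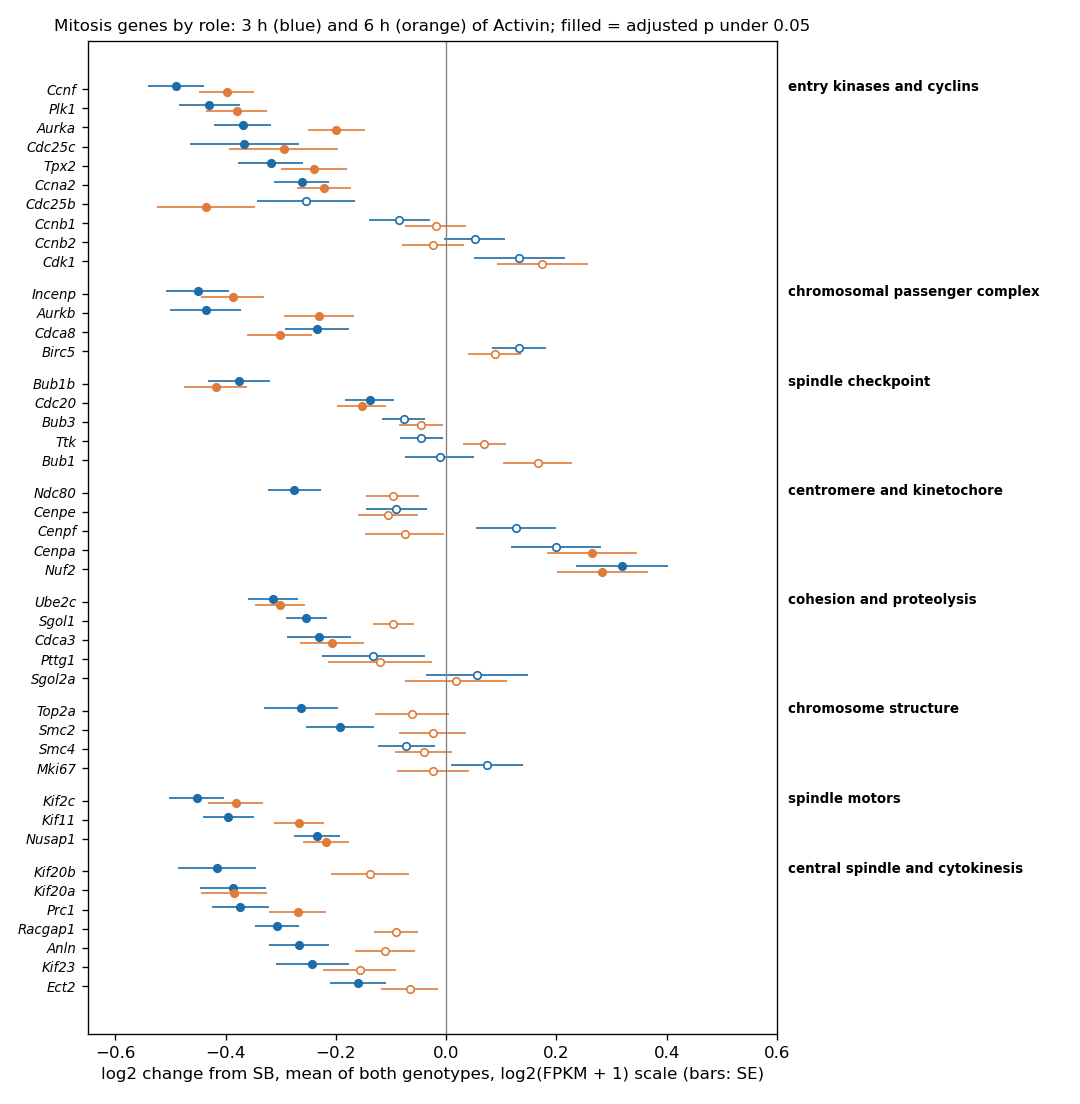
Log2 change from SB on the log2(FPKM + 1) scale, as the mean of both genotypes, for 43 mitosis genes grouped by role, at 3 h (blue) and 6 h (orange). Bars are the SE and filled points have an adjusted p under 0.05; 27 filled blue points lie left of 0 and 1, Nuf2, lies right.

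The cyclins and kinases of mitotic entry split by member. Of these 10 genes, 6 fell at 3 h and 7 at 6 h, none rose, and their median log2 changes were −0.29 and −0.23. Ccnf encodes cyclin F, which binds no CDK and serves as the substrate receptor of a ubiquitin ligase. It stood at 36.5 and 33.6 FPKM in SB in WT lines 18 and 26. The null lines 25 and 39 had 33.8 and 29.5 in SB. At 3 h the same lines gave 24.5, 24.4, 22.5 and 22.2 FPKM, and at 6 h 25.5, 25.4, 24.4 and 24.8. All 8 Activin libraries were below all 4 SB libraries (adjusted p = 0.00026 at 3 h and 0.00075 at 6 h).

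Plk1, the polo-like kinase, stood at 33.8, 31.2, 31.8 and 28.0 FPKM in SB in lines 18, 26, 25 and 39, in that order, which is kept from here on. It was at 23.1, 22.9, 23.0 and 22.4 FPKM at 3 h and at 23.3, 25.4, 24.0 and 22.2 at 6 h, again without overlap. Its log2 change was −0.43 ± 0.06 at 3 h (adjusted p = 0.00085) and −0.38 ± 0.06 at 6 h (adjusted p = 0.0016). Aurka, the spindle pole kinase, and Tpx2, which activates it, fell at both times, by 0.37 and 0.32 on the log2 scale at 3 h and by 0.20 and 0.24 at 6 h. Ccna2, cyclin A2, fell by 0.26 and 0.22 on that scale. The rows of Ccna2, Aurka, Nusap1, Smc4 and Kif20a overlap those of Exosc9, Cstf1, Oip5, Ift80 and Brd8, and the use of strand is not stated, so their values are uncertain.

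The CDK1-activating phosphatases were low. Cdc25b stood at 3.46, 3.46, 3.03 and 2.13 FPKM in SB and at 2.09, 2.32, 1.85 and 1.57 at 6 h, a log2 change of −0.44 ± 0.09 (adjusted p = 0.0070). At 3 h it was at 2.18, 2.50, 2.33 and 2.35 FPKM, so line 39 lay above its SB value, and the comparison did not pass (−0.25 ± 0.09, adjusted p = 0.051, and 0.029 with the line as a block). Cdc25c fell at both times, by 0.37 and 0.29 on the log2 scale, from 5.99 to 7.38 FPKM in SB, and at 6 h it did not pass with the block (adjusted p = 0.058).

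CDK1 and its B-type cyclins did not pass at either time, but did under some alternative settings. Cdk1 stood at 285.0, 307.1, 326.4 and 400.9 FPKM in SB, 332.3, 338.6, 359.4 and 409.9 at 3 h, and 341.0, 328.1, 379.8 and 437.7 at 6 h. Each line was above its own SB value, while the groups overlapped because line 39 was high throughout (log2 change 0.13 ± 0.08, adjusted p = 0.23 at 3 h, and 0.17 ± 0.08, adjusted p = 0.13 at 6 h). With the line as a block, Cdk1 passed as higher at both times (adjusted p = 0.023 and 0.0081). The direction turned under other scalings, to −0.12 with quantile normalization and −0.14 with each library scaled to the same total at 3 h, and both of these passed as lower. The Cdk1 row covers only 550 bases of the gene, so its level may not be that of the whole transcript. Ccnb1 stood at 157.7, 169.3, 174.2 and 193.5 FPKM in SB and at 157.5, 164.5, 158.8 and 172.5 at 3 h, overlapping (−0.09 ± 0.06, adjusted p = 0.25, and −0.02 ± 0.06, adjusted p = 0.81 at 6 h). Every line was below its own SB value at 3 h, and Ccnb1 passed as lower there with the block (adjusted p = 0.037). Ccnb2 had log2 changes of 0.05 and −0.02. Both cyclins passed as lower at 3 h and 6 h with quantile normalization and with each library scaled to the same total. Annotated pseudogenes of Ccnb1 and Ccnb2 could share reads with them.

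The chromosomal passenger complex, which corrects wrong kinetochore attachments, showed falls in 3 of 4 members at both times. Aurkb, its kinase, stood at 22.8, 21.6, 21.8 and 19.7 FPKM in SB, 16.9, 14.6, 16.1 and 14.9 at 3 h, and 18.0, 19.9, 17.8 and 16.9 at 6 h. The 3 h libraries lay below all SB libraries, while at 6 h WT line 26 was above the lowest SB library. The log2 changes were −0.44 ± 0.06 (adjusted p = 0.0015) and −0.23 ± 0.06 (adjusted p = 0.022). Incenp, the scaffold of the complex, went from 30.5, 29.1, 27.3 and 25.1 FPKM to 21.7, 20.6, 20.0 and 18.5 at 3 h and 22.8, 23.1, 21.0 and 18.1 at 6 h. It fell by 0.45 and 0.39 on the log2 scale, with no overlap. Cdca8, borealin, fell by 0.23 and 0.30. Birc5, survivin, did not pass and had log2 changes of 0.13 ± 0.05 (adjusted p = 0.062, and 0.016 with the line as a block) and 0.09 ± 0.05.

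In the spindle checkpoint, Bub1b, which encodes the checkpoint protein BUBR1, stood apart. It stood at 28.5, 26.0, 26.5 and 23.3 FPKM in SB, 19.7, 20.7, 19.5 and 19.4 at 3 h and 19.1, 20.3, 19.7 and 17.9 at 6 h, without overlap, and its log2 changes were −0.38 ± 0.06 and −0.42 ± 0.06 (adjusted p = 0.0018 and 0.0011). Cdc20, the anaphase activator that the checkpoint holds back, fell by 0.14 and 0.15 on the log2 scale. The kinase genes Bub1 (−0.01 and 0.17) and Ttk (−0.04 and 0.07) did not pass, nor did Bub3 (−0.08 and −0.05), and with the block Bub1 passed as higher at 6 h (adjusted p = 0.024).

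Centromere and kinetochore genes moved in both directions. Nuf2 and Ndc80 encode partners in the NDC80 complex, which grips microtubules. Nuf2 stood at 65.1, 71.7, 74.96 and 92.5 FPKM in SB, 87.2, 88.3, 95.1 and 108.1 at 3 h, and 83.1, 84.3, 93.0 and 110.1 at 6 h. Each line was above its own SB value while the groups overlapped through line 39, with log2 changes of 0.32 ± 0.08 (adjusted p = 0.017) and 0.28 ± 0.08 (adjusted p = 0.028). Neither rise passed with each library scaled to the same total or without WT line 18 or 26, and that at 6 h also did not pass with quantile normalization, median scaling, length and GC trends removed or the compared groups alone. Ndc80 stood at 50.8, 49.2, 51.7 and 56.6 FPKM in SB and fell at 3 h to 43.5, 41.3, 41.0 and 45.5 (−0.28 ± 0.05, adjusted p = 0.0034). At 6 h it was at 47.5, 46.8, 49.7 and 50.3 FPKM and did not pass (−0.10 ± 0.05, adjusted p = 0.15, and 0.039 with the block).

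Cenpa, the centromeric histone H3 variant, rose at 6 h by 0.26 ± 0.08 on the log2 scale (adjusted p = 0.034) and had 0.20 ± 0.08 at 3 h (adjusted p = 0.087). That rise did not pass under quantile normalization, median scaling, equal totals, with length and GC trends removed, with the compared groups alone or without WT line 18 or 26. With the block Cenpa also passed at 3 h (adjusted p = 0.0088). The large kinetochore proteins Cenpe (2.68 to 3.22 FPKM over all libraries) and Cenpf (3.50 to 4.98 FPKM) did not pass at either time.

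Of 5 genes of cohesion and proteolysis, 3 fell at 3 h and 2 at 6 h. Ube2c, the ubiquitin-conjugating enzyme of the anaphase-promoting complex, stood at 147.3 to 171.7 FPKM in SB, 122.9 to 129.0 at 3 h and 122.7 to 132.2 at 6 h. It fell by 0.31 and 0.30 on the log2 scale (adjusted p = 0.0014 and 0.0018). Sgol1, shugoshin, which shields centromeric cohesin, fell at 3 h by 0.25 on the log2 scale and did not pass at 6 h (−0.10 ± 0.04). Cdca3 fell by 0.23 and 0.21. Pttg1, securin, and Sgol2a did not pass.

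Among genes of chromosome structure, Top2a, the topoisomerase that untangles sister chromatids, stood at 127.8, 128.1, 122.4 and 104.6 FPKM in SB and at 110.0, 114.1, 87.9 and 91.1 at 3 h. Each line was below its own SB value, with an overlap through line 39 (−0.26 ± 0.07, adjusted p = 0.016). At 6 h it was at 123.8, 127.4, 115.1 and 97.0 FPKM and did not pass (−0.06 ± 0.07). Smc2, of condensin, fell at 3 h by 0.19 on the log2 scale and its partner Smc4 did not pass (−0.07). Mki67, which coats mitotic chromosomes, was at 3.57, 3.67, 3.51 and 3.39 FPKM in SB and 3.45, 3.67, 4.13 and 3.86 at 3 h, with log2 changes of 0.07 ± 0.07 and −0.02 ± 0.07, neither of which passed.

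All 3 spindle motor and microtubule genes fell at both times. Kif2c, a kinesin that depolymerizes microtubules, went from 26.7, 25.8, 26.3 and 23.8 FPKM in SB to 19.4, 19.0, 18.3 and 17.2 at 3 h and 19.3, 20.5, 19.7 and 18.4 at 6 h. Its log2 changes were −0.45 ± 0.05 (adjusted p = 0.00037) and −0.38 ± 0.05 (adjusted p = 0.00085), with no overlap. Kif11, the kinesin that pushes the spindle poles apart, went from 39.3, 39.8, 37.2 and 33.3 FPKM to 29.6, 30.3, 25.5 and 27.3 and then 33.1, 32.2, 29.5 and 28.6. It fell by 0.40 and 0.27 on the log2 scale, and at both times all its Activin libraries lay below those in SB. Nusap1 fell by 0.23 and 0.22. A second, lower row of that name was left out by the rule, was not tested, and moved the other way in every line. It stood at 6.38, 6.35, 5.22 and 10.03 FPKM in SB. At 3 h it was at 10.2, 11.6, 11.4 and 13.7, and at 6 h at 11.4, 9.61, 11.2 and 17.1.

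All 7 genes of the central spindle and cytokinesis fell at 3 h, and 2 of them, Prc1 and Kif20a, fell at 6 h. Kif20b, a kinesin of the central spindle, stood at 16.0, 16.4, 16.7 and 15.1 FPKM in SB, 12.2, 12.4, 10.96 and 11.5 at 3 h and 15.03, 15.3, 15.6 and 12.3 at 6 h. At 6 h lines 26 and 25 were above the lowest SB library, that of line 39 (−0.42 ± 0.07, adjusted p = 0.0030 at 3 h and −0.14 ± 0.07, adjusted p = 0.15 at 6 h). Racgap1, of the centralspindlin complex that recruits the cytokinesis machinery, stood at 80.4, 77.7, 81.6 and 76.2 FPKM in SB, 69.7, 70.0, 58.1 and 57.7 at 3 h and 73.3, 76.9, 72.2 and 73.9 at 6 h. Its 3 h values were lowest in the null lines (−0.31 ± 0.04, adjusted p = 0.00082, and −0.09 ± 0.04, adjusted p = 0.10 at 6 h). Kif20a, which carries the passenger complex to the midzone, fell by 0.39 on the log2 scale at each time, and Prc1, which bundles the central spindle, by 0.37 and 0.27. Kif23, Ect2 and Anln fell at 3 h, by 0.24, 0.16 and 0.27, and with the block Kif23 and Anln passed as lower at 6 h too (adjusted p = 0.021 and 0.040).

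**Figure D2:**
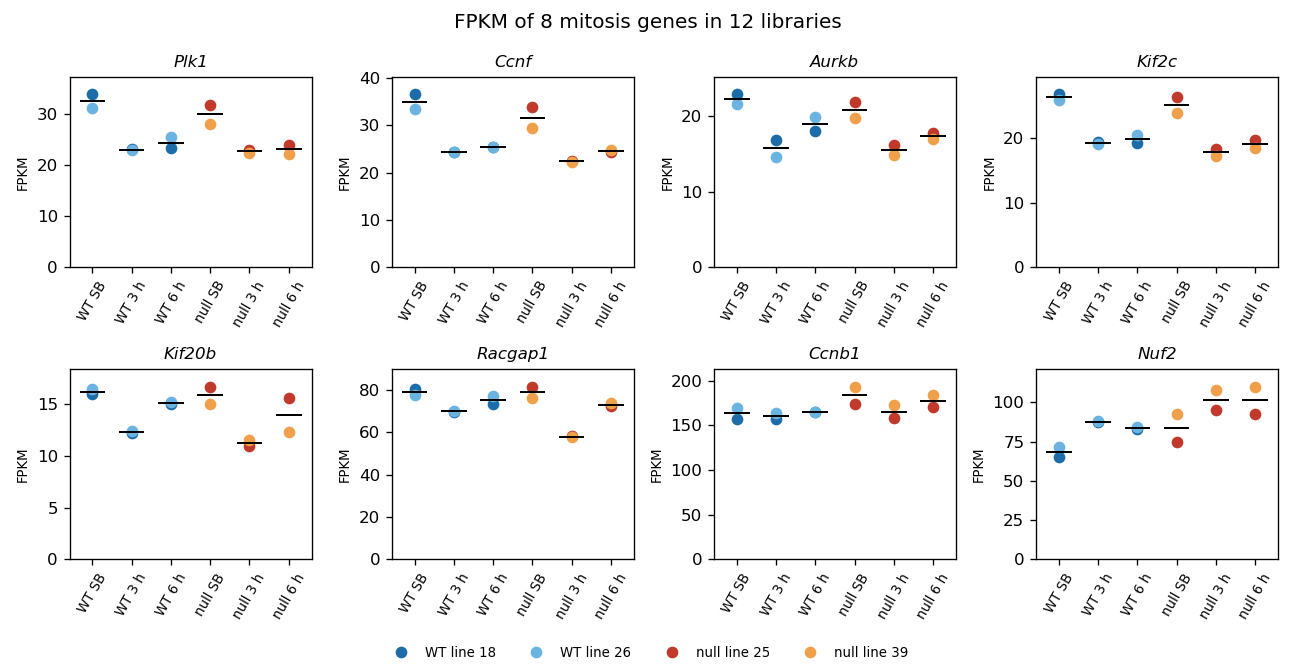
FPKM of 8 mitosis genes in 12 libraries, by group (points, coloured by cell line; horizontal bars, group means). Plk1, Ccnf and Kif2c lie lower in all 8 Activin libraries than in SB, Kif20b and Racgap1 return towards SB at 6 h, Ccnb1 overlaps, and Nuf2 lies higher within each line.

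Between 3 and 6 h, 4 members rose and none fell, where 7.83% of all genes rose and 4.95% fell. They were Kif20b (0.28 ± 0.07, adjusted p = 0.036), Racgap1 (0.22 ± 0.04, adjusted p = 0.010), Ndc80 (0.18 ± 0.05, adjusted p = 0.044) and Sgol1 (0.16 ± 0.04, adjusted p = 0.029). All 4 are members that had fallen at 3 h and did not pass at 6 h, and the 3 h libraries enter both comparisons. The median log2 change from 3 to 6 h was 0.06 over members and 0.01 over all genes. With the cell line as a block, 9 members rose, adding Anln, Aurka, Aurkb, Bub1 and Top2a, where 14.1% of all genes rose. Without WT line 18 or 26 the count was 0 (0.117% and 0.148% of all genes rose), without null line 25 it was 1 (5.74%) and without null line 39 it was 9 (7.15%). Plk1 (0.05), Cdk1 (0.04), Ccnb1 (0.07), Aurkb (0.21 ± 0.06, adjusted p = 0.068), Top2a (0.20 ± 0.07, adjusted p = 0.086) and Mki67 (−0.10) did not pass. This comparison was added after its values were seen.

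**Figure D3:**
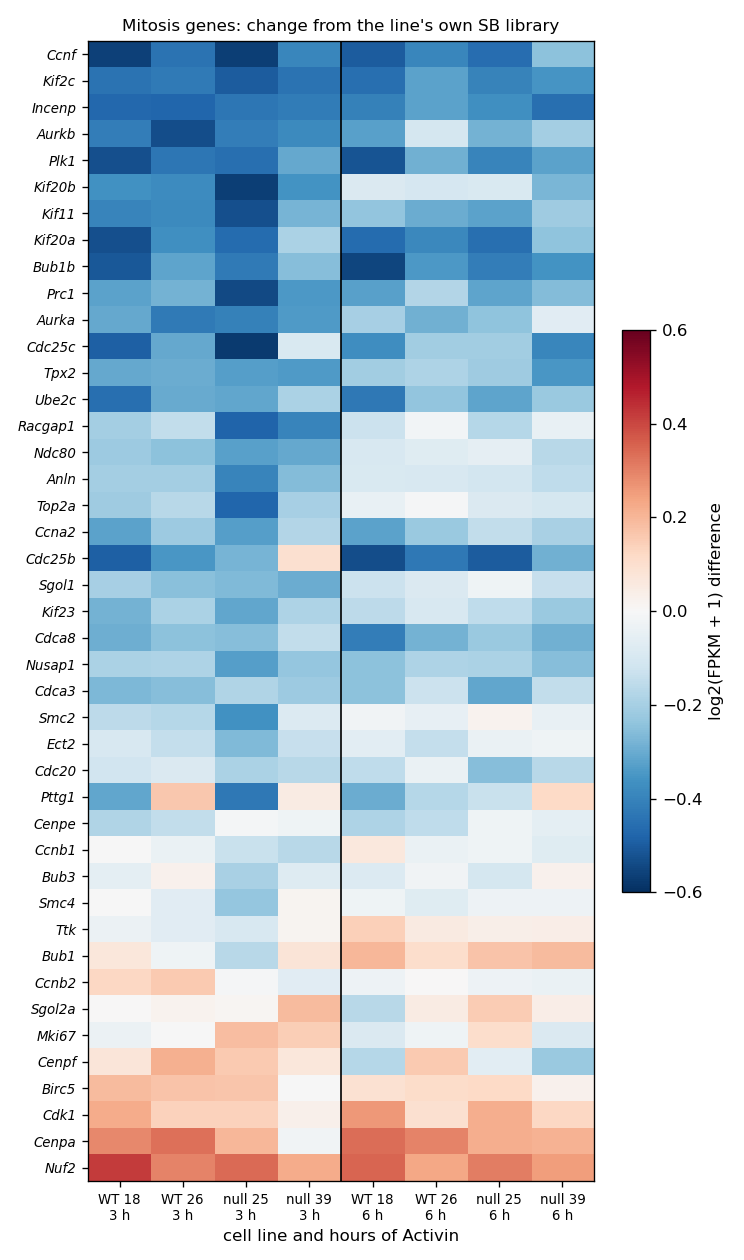
Change on the log2(FPKM + 1) scale from the cell line's own SB library for 43 mitosis genes (rows, ordered by the mean change at 3 h) in 4 lines at 3 h (left) and 6 h (right). Blue is lower and red higher than SB; the upper rows are blue in all 8 columns, and Nuf2, at the bottom, is red in all 8.

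Within the WT lines, 18 members fell at 3 h and none rose (all genes, 9.83% lower and 12.6% higher), and 13 fell and none rose at 6 h (6.31% and 9.59%). Within the null lines, 20 fell and none rose at 3 h (7.14% and 6.50%), and 10 fell and none rose at 6 h (5.53% and 7.87%). Of the members that fell at 3 h, 16 did so in both genotypes, 88.9% of the WT list and 80.0% of the null list. Over all genes, 47.7% of the WT list and 65.7% of the null list were shared. At 6 h, 10 members fell in both, 76.9% of the WT list and all of the null list (all genes, 60.2% and 68.7%). From 3 to 6 h, no member passed in WT (limma; 1.22% of all genes higher and 1.31% lower, with 3 members higher and 0 lower at an unadjusted p under 0.05), and 1, Racgap1, rose in the null lines by 0.33 on the log2 scale (2.78% of all genes higher and 1.86% lower).

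The largest falls in WT at 3 h were those of Ccnf (−0.50 ± 0.07), Plk1 (−0.48 ± 0.08), Aurkb (−0.47 ± 0.09) and Incenp (−0.47 ± 0.08). In the null lines at 3 h they were those of Ccnf (−0.48 ± 0.07), Kif2c (−0.47 ± 0.07), Kif20b (−0.46 ± 0.10) and Prc1 (−0.44 ± 0.07), with Racgap1 next (−0.44 ± 0.06). At 6 h Cdc25b (−0.48 ± 0.13), Ccnf (−0.45 ± 0.07) and Bub1b (−0.45 ± 0.08) led in WT, and Incenp (−0.41 ± 0.08), Bub1b (−0.39 ± 0.08) and Kif2c (−0.38 ± 0.07) in the null lines. Plk1 fell in all 4 of these comparisons, by 0.48 and 0.40 on the log2 scale in WT and 0.38 and 0.36 in null. Aurkb fell at 3 h in each genotype and did not pass at 6 h (−0.22 ± 0.09 in WT, −0.24 ± 0.09 in null). Top2a passed only in the null lines at 3 h (−0.34 ± 0.09, against −0.19 ± 0.09 in WT), and the difference between these responses did not pass (−0.15 ± 0.13). Cdk1, Ccnb1 and Mki67 passed in none of the 4, with log2 changes of 0.09 to 0.18, −0.15 to 0.01 and −0.06 to 0.17.

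These counts changed with the lines included, also within a genotype whose own libraries were unchanged. All groups share the same estimate of the spread. Without WT line 18 or WT line 26, none of the members passed within either genotype at 3 h or 6 h, where 0.694 to 3.01% of all genes did. In these fits the remaining WT line is assumed to vary like the null lines. On the mean of both genotypes, 7 members passed at 3 h without WT line 18 (Ccnf, Plk1, Aurka, Aurkb, Incenp, Kif2c and Kif11), and 8 without WT line 26 (the same list with Bub1b and Ube2c and without Aurka). All were lower, as were 1.94% and 2.53% of all genes in these fits. At 6 h, 0 passed without WT line 18, and 5, all lower, without WT line 26 (Ccnf, Plk1, Kif2c, Bub1b and Ube2c), where 1.59% and 2.71% of all genes were lower. Without null line 25, 3 members were lower in null at 3 h and 3 at 6 h (all genes, 0.819% and 2.45% lower), with line 39 assumed to vary like the WT lines. In that fit 24 were lower and 4 higher in WT at 3 h (all genes, 13.9% and 20.1%) and 16 lower and 3 higher at 6 h (10.6% and 19.7%). The median log2 change at 3 h on the mean of both genotypes lay between −0.26 and −0.21 whichever line was left out. With the cell line as a block, 23 members were lower and 5 higher in WT at 3 h (all genes, 15.9% and 21.3%), and 15 lower and 3 higher in the null lines at 6 h (12% and 19.4%).

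With all lines included, no member passed as different between null and WT in any treatment. At an adjusted p under 0.05, limma called 0 members in SB, where 0.312% of all genes passed, 0 at 3 h (0.382%) and 0 at 6 h (0.211%). At an unadjusted p under 0.05 the numbers higher and lower in null were 4 and 2 in SB, 0 and 5 at 3 h and 3 and 3 at 6 h. On the means of the lines 0 members and 0 of all genes passed, with 1 member higher and 2 lower before adjustment. In SB the differences ran from −0.33 (Cdc25b, SE 0.13) to 0.30 (Cenpa, SE 0.12). With 2 lines per genotype, differences of this size may have passed unseen. Plk1 differed by −0.12 ± 0.08, Cdk1 by 0.29 ± 0.12, Ccnb1 by 0.17 ± 0.08, Aurkb by −0.09 ± 0.09, Top2a by −0.18 ± 0.09 and Mki67 by −0.05 ± 0.09. Without null line 25, whose SB levels of Cdk1 and Nuf2 were nearer those of WT, 9 members passed in SB and 8 at 6 h, where 16.0% and 11.8% of all genes passed. These compare line 39 alone with the WT lines, its spread is assumed to be that of the WT lines, and they are not a result about the genotype. Cdk1, Cenpa and Nuf2 were then higher and Top2a lower at both.

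The response to Activin was not found to differ between genotypes for any member. limma called 0 members and 0 of 12823 genes for the difference in response at 3 h and at 6 h. At an unadjusted p under 0.05, 1 member, Racgap1, had a larger fall in the null lines at 3 h (difference −0.26 ± 0.08, adjusted p = 0.76), and none did at 6 h. Over the members the differences ran from −0.26 to 0.33 at 3 h and from −0.14 to 0.23 at 6 h, with medians of −0.04 and −0.005. The SE of a single difference was 0.08 to 0.20 at 3 h, so unequal responses of that size may have passed unseen.

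Transcript length was examined because FPKM changes in this table moved with it. Over 12744 genes with a length, the Spearman correlation of the log2 change with length was −0.19 at 3 h and −0.22 at 6 h on the mean of both genotypes. Among the 43 members it was −0.03 and 0.07; these are correlations across genes, which are not independent. Genes were cut by length into 4 classes of like size. In the shortest class (up to 1628 bp) the median log2 change at 3 h was 0.13 over all genes and 0.05 over 5 members. In the other classes, from short to long, it was −0.05, −0.08 and −0.04 over all genes and −0.23, −0.26 and −0.14 over 11, 15 and 12 members. At 6 h the shortest class had 0.14 over all genes and −0.02 over members, and the others had 0.02, −0.05 and −0.05 over all genes and −0.15, −0.22 and −0.07 over members. With the trend on length removed from every library, 25 members were lower and 1 higher at 3 h, with Ect2 and Smc2 no longer passing, where 17.8% of all genes were lower and 19.0% higher. At 6 h 19 were lower and 3 higher, against 17.6% and 19.9%. The members' median log2 changes were then −0.19 and −0.11.

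**Figure D4:**
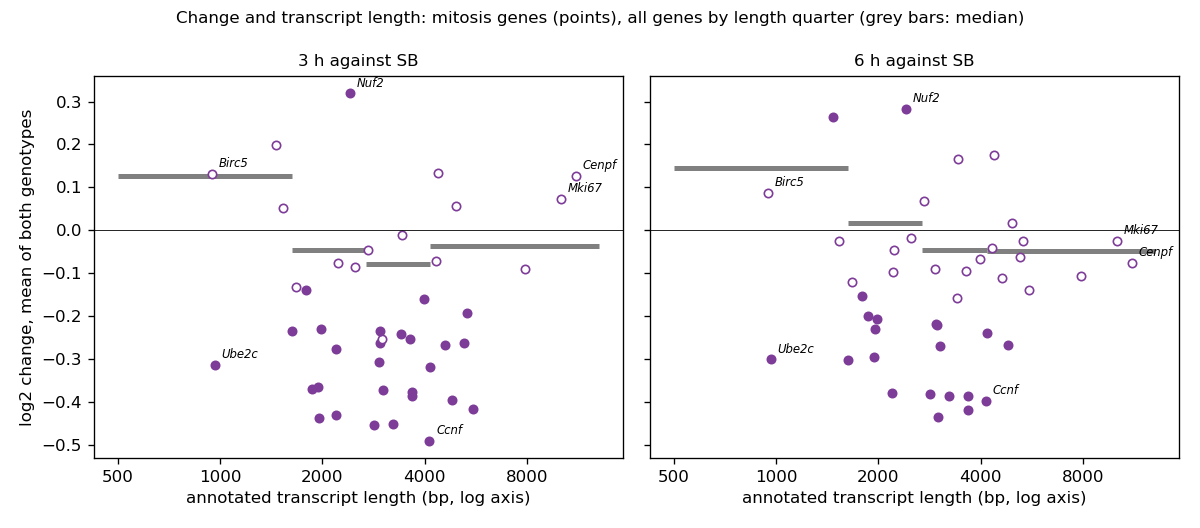
Log2 change from SB, mean of both genotypes, against annotated transcript length in bp (log axis) for 43 mitosis genes (points; filled, adjusted p under 0.05) at 3 h and 6 h. Grey bars are medians over all genes in each of 4 length classes, 0.13 for the shortest at 3 h; most filled points lie below the bar of their class.

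Scaling set the baseline of these values. In each line the deposited FPKM of named genes summed to more in the Activin libraries than in that line's SB library (550886 to 689709 in SB, 679576 to 751745 at 3 h and 641957 to 771513 at 6 h), and when each library was scaled to the same total over named genes, the median log2 change over all genes moved to −0.26 at 3 h and −0.17 at 6 h. The members' medians were then −0.51 and −0.32. At 3 h 38 members were lower and none higher, where 44.9% of all genes were lower and 7.98% higher, and at 6 h 30 were lower and none higher, against 28.9% and 10.0%. Birc5, Bub1, Ccnb1, Ccnb2 and Cdk1 were among those added at 3 h. Which scaling fits the RNA content of the cells was not tested.

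The wider machinery was described with lists of related genes. Over all genes, 18.7% fell and 18.8% rose at 3 h on the mean of both genotypes, and 16.1% fell and 21.0% rose at 6 h. The lists were not tested against these shares. At 3 h on the mean of both genotypes, 15 of 40 other spindle and centrosome genes fell and 3 rose, and 16 fell and 5 rose at 6 h. Kif14, a cytokinesis kinesin (−0.55), Ckap2l (−0.47) and Bora, which helps activate PLK1 (−0.42), led the falls at 3 h. Of 16 other cohesin and condensin genes, 7 fell and 1 rose at 3 h. The one that rose was Espl1, separase, which cuts cohesin (0.62 at 3 h and 0.70 at 6 h). Of 33 other kinetochore genes 8 fell and 3 rose at 3 h, and 5 fell and 5 rose at 6 h. Cenpk (0.54) and the checkpoint gene Mad2l1 (0.46) rose at 3 h, and Hjurp, the chaperone of CENP-A, fell (−0.38). Of 16 genes of the anaphase-promoting complex, 4 fell and 4 rose at 3 h and 4 fell and 7 rose at 6 h. The small subunits Anapc10, Anapc11, Anapc13 and Anapc16 were those that rose at 3 h (0.29 to 0.42); Anapc13 was added to the names after its value was seen.

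Of 17 genes for transcription regulators of mitosis genes, 6 fell and 1 rose at 3 h (all genes, 18.7% and 18.8%). At 6 h 4 fell and 2 rose (all genes, 16.1% and 21.0%). Mybl2, which encodes B-MYB, fell by 0.30 on the log2 scale at 3 h and by 0.76 at 6 h, and Lin9, of the MuvB complex, rose (0.51 and 0.39). Median log2 changes of these lists at 3 h lay between −0.17 (cohesin and condensin) and 0.06 (anaphase-promoting complex), against −0.24 for the mitosis genes and −0.01 for all genes.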

How the data were processed

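Gene expression was measured by poly(A) RNA sequencing with 50 bp single reads, per the labels' protocols. The authors deposited FPKM per locus and library in 1 table, per the file headers, with mm10 as the build per the submitters' processing notes. The software for alignment and quantification, the strand setting and the scaling across libraries are not given in the sources read here. Of 17446 loci, 2666 had no gene name and 27 had a status other than OK, and both were left out. Where a name had several loci, that with the highest mean was kept (1245 left out). FPKM is not a count, and read totals are not given. In 11 libraries set against the twelfth, 36.1 to 47.7% of ratios of low values fell on small whole-number steps, so relative depth was not settled and values of low genes have unknown counting error.

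The 12823 genes that reached an FPKM of 1 in 2 or more libraries were tested on the log2(FPKM + 1) scale with limma 3.58.1 (R 4.3.3), using 6 group means, a variance trend, two-sided tests and Benjamini-Hochberg adjustment over all genes (threshold 0.05; 6 residual degrees of freedom). The pseudocount understates changes of low genes. Comparisons of both genotypes average the WT and null contrasts. Contrasts of genotype within a treatment treat libraries as independent; that on line means does not. The fit was tried on simulated data for WT at 3 h against SB, with independent noise and no effect of the line. That trial therefore does not cover pairing between libraries. The libraries of a line come from the same cells and so are paired. Deviations of libraries of the same line correlated at 0.017 to 0.054 in the WT and 0.25 to 0.35 in the null lines, and the line as a block was an alternative. Alternatives also changed the pseudocount (0.1, 5), the filter, the scaling, the variance trend, the groups fitted and the lines included, or removed trends on transcript length and GC content (GENCODE M21 transcripts, for 99.4% of named genes).

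Members and lists were chosen with earlier results of these data known. In each comparison the called members were named, at most the 10 with the largest change, with Plk1, Cdk1, Ccnb1, Aurkb, Top2a and Mki67 always given; every other member is accounted for by its role. The comparison of 6 h with 3 h over both genotypes, the printed promoters and the limit of 500 bases between a promoter's start and the annotated gene start were chosen after values were seen. Without that limit the CHR word stood in 26 of 35 members and in 19 of 20 that fell at 3 h. Python 3.11.15 with pandas 2.3.3 and scipy 1.17.1 was used for summaries.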

Additional observations from a re-analysis of the deposited data

Results flagged for a closer look

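Kif4, the member with no named row, was read from unnamed loci that lie in it on the X chromosome of mm10 and that enter no comparison above. The locus at 100625282 to 100626596, at the start of the gene, averaged 10.2 FPKM over all libraries, with 9.33 ± 0.73 (SD, n = 4) in SB, 10.7 ± 1.61 at 3 h and 10.6 ± 0.73 at 6 h. The locus at 100726452 to 100727213 averaged 6.86 FPKM, with 7.85 ± 0.49 (SD, n = 4) in SB, 6.52 ± 0.53 at 3 h and 6.19 ± 0.81 at 6 h. At the second locus the SB libraries (7.19 to 8.24 FPKM) did not overlap those at 3 h (5.90 to 6.99) or 6 h (5.11 to 6.85), and at the first they did. Both stand out only as signal in data outside the main measurement. No test was run on them, and the loci cover small stretches of the gene, which has an annotated pseudogene.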

How the results depend on the processing

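The value of a named member that had passed kept its direction under every alternative run, and it also kept its call in 850 of 920 cases apart from those that left out a line; with a line left out it kept its call in 134 of 284. The cause of the changes below was not tested. The count of 28 members at 3 h and 21 at 6 h over both genotypes stayed within 1.5 times under every alternative with all lines, and ran from 7 to 31 and from 0 to 22 with a line left out. For 6 h against 3 h over both genotypes (4), the count was 1 with quantile normalization, 2 with median scaling, 2 at equal totals, 1 with length and GC trends removed, 1 with the compared groups alone, 2 with no variance trend, 9 with the replicate block and 7 with the block and the length trend removed, and 0 to 9 with a line left out. In WT at 3 h (18) it was 33 at equal totals and 28 with the replicate block, and 0 to 28 with a line left out. In WT at 6 h (13) it was 20 with quantile normalization and 22 with block and length trend removed, and 0 to 19 with a line left out. In WT from 3 to 6 h (0) it was 1 with the block, 1 with block and length, and 0 to 1 with a line left out. In null at 3 h (20) it was 0 with the compared groups alone, and 0 to 24 with a line left out. In null at 6 h (10) it was 18 with the block, 0 with the compared groups alone, 21 with block and length, and 0 to 8 with a line left out. In null from 3 to 6 h (1) it was 0 with quantile normalization, equal totals or the compared groups alone, 5 with the block, 4 with block and length, and 0 to 0 with a line left out. Between genotypes it was 0 to 9 in SB, 0 to 8 at 6 h and 0 to 3 on line means with a line left out. The block changed no other of these counts by over 1.5 times.

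Directions turned only for values that had not passed. With quantile normalization Cdk1 was at −0.147 and −0.0709 in WT at 3 h and 6 h, −0.0981 and −0.015 in null, and −0.123 and −0.0429 over both genotypes; at equal totals it was at −0.125, −0.0425, −0.163, −0.0133, −0.144 and −0.0279 in the same order. Ccnb1 in WT was at 0.00782 at 3 h with median scaling and 0.025 with the length trend removed, with or without the block. At 6 h it was at −0.212 with quantile normalization, −0.207 at equal totals, −0.0587 with length and GC trends removed and −0.0382 to 0.0629 with a line left out, and over both genotypes at −0.0441 to 0.00644 with a line left out. Mki67 at 3 h was at 0.00417 in WT with median scaling, and at equal totals at −0.0317 in null and −0.157 over both genotypes. At 6 h in null it was at −0.145 at equal totals, −0.013 with length and GC trends removed and −0.0884 to 0.106 with a line left out, and over both genotypes at −0.0725 to 0.0245 with a line left out. Top2a in WT at 6 h was at 0.0275 with the length trend removed, with or without the block. Unknown read totals limit what can be said of Cdc25b, Cenpe, Mki67, Cenpf and Sgol2a, all under 5 FPKM on average.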

Other observations

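Genes of the cell cycle outside mitosis also moved in both directions on the mean of both genotypes (limma, adjusted p under 0.05). Of 36 S phase genes, 18 fell and 10 rose at 3 h (all genes, 18.7% and 18.8%). At 6 h 17 fell and 7 rose (all genes, 16.1% and 21.0%). The replication licensing genes Cdc6 (−0.44) and Cdt1 (−0.40), the ribonucleotide reductase gene Rrm1 (−0.44) and E2f2, a transcription factor of S phase entry (−0.51), fell at 3 h. Gmnn, geminin, which blocks licensing (0.57), and Ccne2, a cyclin of S phase entry (0.56), rose. Cdc6 and Cdt1 were picked after their values were seen.

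Of 7 genes of CDK inhibition, 2 fell and 2 rose at 3 h, and 3 fell and 1 rose at 6 h. Over all genes, 18.7% fell and 18.8% rose at 3 h, and 16.1% fell and 21.0% rose at 6 h. Cdkn1a, which encodes the CDK inhibitor p21, went from means of 11.1 and 10.7 FPKM in SB in WT and null to 17.7 and 16.1 at 3 h and 18.9 and 16.3 at 6 h (log2 changes 0.60 and 0.65). The highest log2 changes in the list, passing or not, were 0.94 at 3 h and 0.74 at 6 h and were not those of Cdkn1a. The stress gene Gadd45g fell by 0.71 and 0.48 on the log2 scale and Gadd45b rose at 3 h (0.46). Of 9 G1 regulators, 3 fell and 1 rose at each time: Myc rose (0.56 and 0.72), while Mycn (−0.34 and −0.37) and Ccnd3 (−0.30 and −0.56) fell at both.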
